A study of Mus musculus with 2 samples.

Results

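Il33, Il1rl1, Il13, Il4, Il5 and Il6 were followed through all lung cells of 2 droplet single-cell libraries, as 6 of the 29004 features measured. The genes were chosen by name, as an alarmin, its receptor and 4 cytokines of the type 2 response, and all 6 were found under their own symbols. Their unique molecular identifiers (UMIs, each standing for 1 captured transcript) were summed per library and per cluster of cells, with the 23 clusters taken from the authors' cell table. The 5E1 library came from pups given the Hedgehog-blocking antibody 5E1 at postnatal day 3. The IgG library came from pups given control IgG on the same day. All pups were of the genotype Gli1creERT2/+;R26RtdTom/+ and received tamoxifen at day 1, so both groups carried the tamoxifen-inducible Cre at Gli1 and the reporter. Lungs were taken at day 6, with 3 pups pooled per condition and about 20000 cells loaded for each, which gave 1 library per condition. No difference below therefore has a replicate check, no test or p-value is given, and every 95% interval covers counting error only. The UMI is the unit of these intervals, although UMIs of 1 cell are not independent.

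Il33 encodes a nuclear cytokine of the IL-1 family that damaged or stressed barrier cells release. Its receptor chain ST2 is the product of Il1rl1 and signals together with the Il1rap chain. Group 2 innate lymphoid cells (ILC2), basophils and mast cells carry ST2 and answer with Il13, Il5, Il4 or Il6, and ILC2 accumulate in the mouse lung after birth, while alveoli form.

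The 5E1 library held 9454 kept cells and 58890639 UMIs (median 4636 per cell), against 13509 kept cells and 77436890 UMIs (median 4541) in the IgG library. The libraries differed in sex: 24.2% of 5E1 cells and 91.5% of IgG cells had an Xist UMI and no UMI of 4 Y-linked genes, and the 5E1 library held 5009 Y-linked UMIs against 4 in the IgG library. Antibody and sex of the pooled pups cannot be told apart, so values for the 5E1 cells with Xist and no Y-linked UMI are given where they move a result. Unless stated otherwise, these are set against all IgG cells. The libraries shared 184 barcodes among kept cells. Clusters carry no names from the authors. A cluster was called "like" a type when at least 3 of that type's marker genes stood among its top 30 genes by fold, at least 1 of them in the top 10, and no other marker list reached 3, a rule made after the data had been seen. This named 16 clusters and left 7 unnamed, among them clusters 2 and 3, which held markers of several lymphoid and granulocyte types.

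In GRCm38 the genes lie at chr19:29925114-29960718 (Il33, plus strand), chr1:40429570-40465415 (Il1rl1, plus), chr5:30013114-30019981 (Il6, plus) and, within 122 kb of chromosome 11, at chr11:53602982-53618669 (Il4, minus), chr11:53631324-53634702 (Il13, minus) and chr11:53720794-53725106 (Il5, plus), all from the GENCODE vM21 annotation. Rad50, a DNA repair gene at chr11:53649519-53707319 that holds control elements of the neighbouring cytokine genes, lies between Il13 and Il5. The 250 bases before RefSeq's start of the 4 cytokine genes are shown because Il4, Il13 and Il5 share this stretch yet, as given below, were found in partly different cells, while Il6 from another chromosome was found in the cells that held Il4. The sequences are RefSeq's on GRCm38.p6, 5′ to 3′ on the strand of the gene, from chr11:53618666-53618915 (minus), chr11:53634703-53634952 (minus), chr11:53720544-53720793 (plus) and chr5:30012864-30013113 (plus), and capitals mark motif matches. Il4 has 2 RefSeq windows, of which the one nearer the GENCODE start is shown, and its start lies 4 bases inside the GENCODE gene.
Il4 promoter: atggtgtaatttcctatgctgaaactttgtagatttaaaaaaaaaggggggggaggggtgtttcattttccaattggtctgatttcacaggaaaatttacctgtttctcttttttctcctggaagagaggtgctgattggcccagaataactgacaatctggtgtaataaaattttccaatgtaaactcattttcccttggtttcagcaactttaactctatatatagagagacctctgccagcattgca
Il13 promoter: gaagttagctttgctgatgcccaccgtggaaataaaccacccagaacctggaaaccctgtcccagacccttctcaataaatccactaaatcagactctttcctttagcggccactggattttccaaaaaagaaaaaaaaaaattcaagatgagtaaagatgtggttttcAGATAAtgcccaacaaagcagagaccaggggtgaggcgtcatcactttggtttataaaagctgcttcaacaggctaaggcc
Il5 promoter: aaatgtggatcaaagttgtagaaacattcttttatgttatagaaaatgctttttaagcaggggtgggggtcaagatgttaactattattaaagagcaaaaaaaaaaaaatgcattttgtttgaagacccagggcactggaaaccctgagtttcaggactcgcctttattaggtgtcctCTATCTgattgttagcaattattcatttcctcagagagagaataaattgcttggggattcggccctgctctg
Il6 promoter: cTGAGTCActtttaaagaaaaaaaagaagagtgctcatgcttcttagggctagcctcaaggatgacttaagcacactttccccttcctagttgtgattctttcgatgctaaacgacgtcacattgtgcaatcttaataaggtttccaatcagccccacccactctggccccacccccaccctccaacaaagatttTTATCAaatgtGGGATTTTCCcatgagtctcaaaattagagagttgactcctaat
Searched on both strands were the GATA hexamer AGATAA with its variants AGATAG, then TGATAA as well as TGATAG, an NF-kB decamer of 3 G, any 2 bases, 3 T and 2 C, and the AP-1 heptamer TGANTCA. The windows of Il13 and Il5 held 1 GATA match each, and that of Il4 held no match to any of the 3 motifs. The Il6 window held 1 match to each motif, and no matches overlapped. Of 32851 windows of the same length, 26.5% held a GATA hexamer, 1.41% the NF-kB decamer and 6.75% the AP-1 heptamer. These matches are letters in a window, and binding was not measured.

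Il33 was found mainly in alveolar epithelial, mesothelial and fibroblast clusters, and no immune cluster held 20 of its UMIs. AT2-like cluster 9, the surfactant-making alveolar cells, had 122.8 CPM of Il33 in the 5E1 library (530 UMIs, 95% interval 112.6 to 133.8) and 130.4 CPM in the IgG library (653 UMIs, 120.6 to 140.8). CPM here is the UMIs of a gene in a cluster and library, scaled by all UMIs of that cluster and library. Cluster 9 thus held 60.3% of all 1961 Il33 UMIs. Mesothelial-like cluster 17, the cells that line the lung surface, had 99.3 CPM in 5E1 (143 UMIs) and 74.4 CPM in IgG (140 UMIs). Adventitial fibroblast-like cluster 18 had 38.5 CPM in 5E1 (111 UMIs) and 38.6 CPM in IgG (185 UMIs). AT1-like cluster 15, the flat gas-exchange cells, had 10.4 CPM in 5E1 (25 UMIs) and 23.3 CPM in IgG (40 UMIs). Blood endothelial-like cluster 11 had 2.71 CPM in 5E1 and 2.68 CPM in IgG, and every further cluster had fewer than 20 UMIs. In that order, cluster 9 and cluster 17 had overlapping intervals in the 5E1 library but not in the IgG library, and each of the next steps down to cluster 11 was larger than the intervals in both libraries. 

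**Figure D1:**
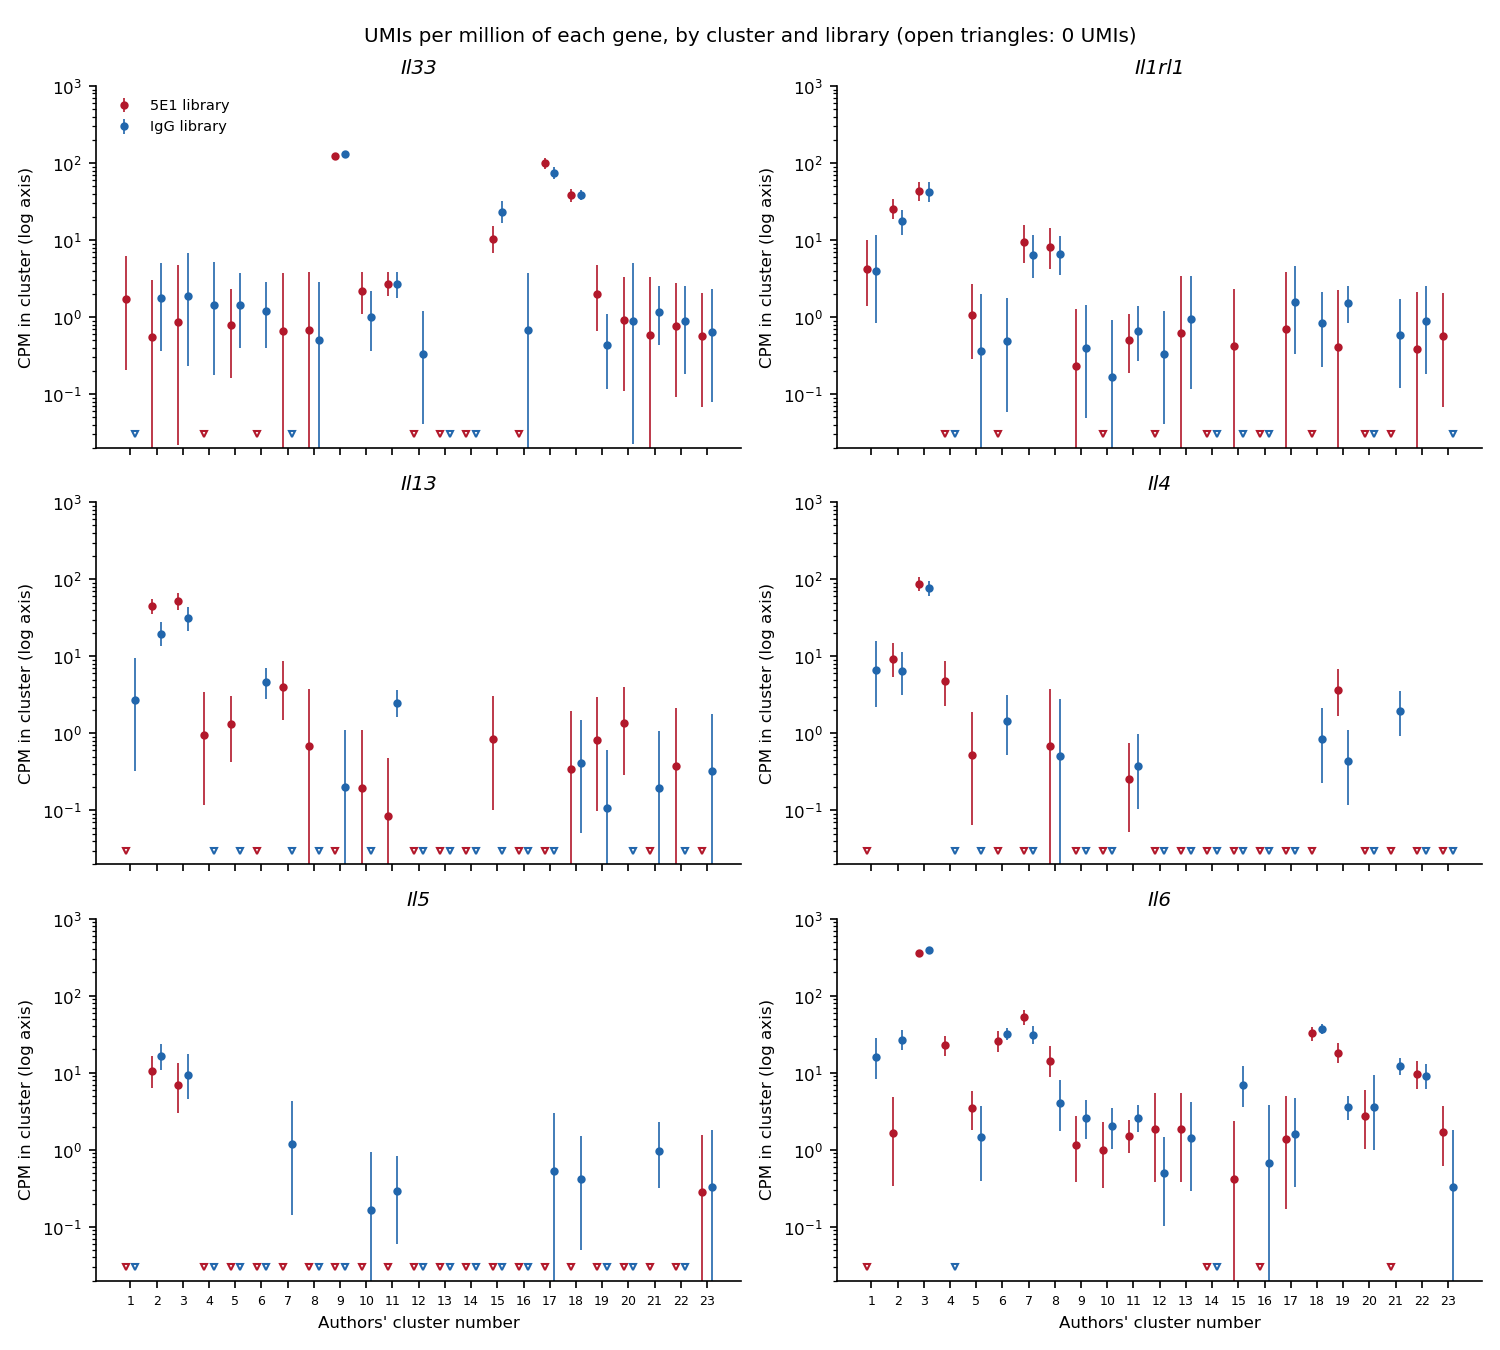
CPM (log axis) of each of the 6 genes by authors' cluster, with 5E1 in red left of IgG in blue, exact 95% Poisson intervals as lines and clusters with 0 UMIs as open triangles at the foot. Il33 stands highest in clusters 9, 17 and 18, and each of the other 5 genes stands highest in cluster 2 or 3.

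An Il33 UMI was seen in 50.3% of AT2-like cells in 5E1 (255 of 507) and in 50.3% in IgG (350 of 696), with median depths of 6998 and 6086 UMIs. After thinning each cell to 1000 UMIs the shares were 9.27% (6.89 to 12.1) in 5E1 and 13.2% (10.8 to 16.0) in IgG. B-like cluster 4, which should lack the gene, had an Il33 UMI in 0 of 426 cells in 5E1 (upper limit 0.862%) and in 1 of 380 cells in IgG, at median depths of 3325 and 2498.5 UMIs. The shares in AT2-like cells thus lay far above this background.

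Between the libraries, the Il33 level of AT2-like cells had a ratio of 0.942 (5E1 over IgG, 0.839 to 1.06). That value depends on which cells stand for 5E1. The 103 AT2-like cells with Xist and no Y-linked UMI had 85.5 CPM (67.8 to 106) against 124.9 CPM (115 to 135) in the 628 such IgG cells. The other 404 AT2-like cells of the 5E1 library had 133.2 CPM and the other 68 of the IgG library 214.5 CPM. These other cells are not alike in kind, since the IgG library held only 4 Y-linked UMIs against 5009 in 5E1. The 68 IgG cells were also shallower, at a median of 4580.5 UMIs against 6476.5 in the 628. No sex-matched comparison can be drawn from them. The Xist-bearing 5E1 cells against the whole IgG cluster gave a log2 ratio of -0.60. In cells thinned to 1000 UMIs, which weights cells alike, the log2 ratio was -0.53 (-1.02 to -0.06). The level of Il33 also followed other traits of AT2-like cells. Cells with at least 2 dividing-cell markers had 83.8 CPM against 128.7 CPM in the remaining cells in 5E1. In IgG they had 72.9 CPM against 148.6 CPM. The cells with these markers were also deeper, at medians of 12596 UMIs against 6767 in 5E1 and 10328 against 5845 in IgG. Their shares with an Il33 UMI were alike, at 48.6% against 50.4% in 5E1 and 50.5% against 50.3% in IgG. AT1 genes took 4474 CPM of cluster 9 in 5E1 and 2997 CPM in IgG, and 10 of the 10 AT1 genes were higher in 5E1. Cells split by AT1 UMIs showed no common order of Il33: with none, 1 to 2, and 3 or more AT1 UMIs per 1000, Il33 stood at 126.6, 149.4 and 103.6 CPM in 5E1 and at 92.7, 140.1 and 144.6 CPM in IgG. The part of these traits in the ratio was not tested.

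In the mesothelial-like cluster Il33 had a ratio of 1.34 (1.05 to 1.70). AT2 genes took 1680 CPM of that cluster in 5E1 and 673.9 CPM in IgG, with 8 of 9 genes higher in 5E1, and their part in the ratio was not tested.

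The AT1-like cluster was the only one of the 5 clusters with at least 20 Il33 UMIs where the gene was past 2-fold between the libraries, at a log2 ratio of -1.15 (0.5 UMI added to each sum). Of all genes tested in that cluster 3.31% were past 2-fold. The ratio of 0.448 (0.260 to 0.756) rested on 25 UMIs in 5E1 and 40 in IgG, and only 1 of the 25 lay in a cell with Xist and no Y-linked UMI. Nearly all of them lay in AT1-like cells that also carried AT2 transcripts. In the 5E1 library 21 Il33 UMIs were in the 49 cells with at least 5 UMIs of the 9 AT2 genes after thinning to 1000 UMIs (33.4 CPM, 20.7 to 51.1), and 3 were in the 379 cells with fewer (1.71 CPM). In the IgG library 39 Il33 UMIs were in 63 such AT2-rich cells (59.5 CPM, 42.3 to 81.3), and 1 was in the 215 remaining cells (0.951 CPM). AT1-like cells with under 5 AT2 UMIs were thus near the level of the B-like cells, at 0 CPM in 5E1 and 1.46 CPM in IgG. The AT2 genes as a whole took 16629 CPM of cluster 15 in 5E1 and 21144 CPM in IgG, with 8 of 9 genes lower in 5E1, and only 7 and 2 cells stood 1 UMI below the limit. AT2-rich cells had medians of 11193 UMIs in 5E1 and 8367 in IgG, against 3915 and 4396 in the others, so they were also the deeper cells. Doublets were not called, and the part of cell pairs in these values was not tested.

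**Figure D2:**
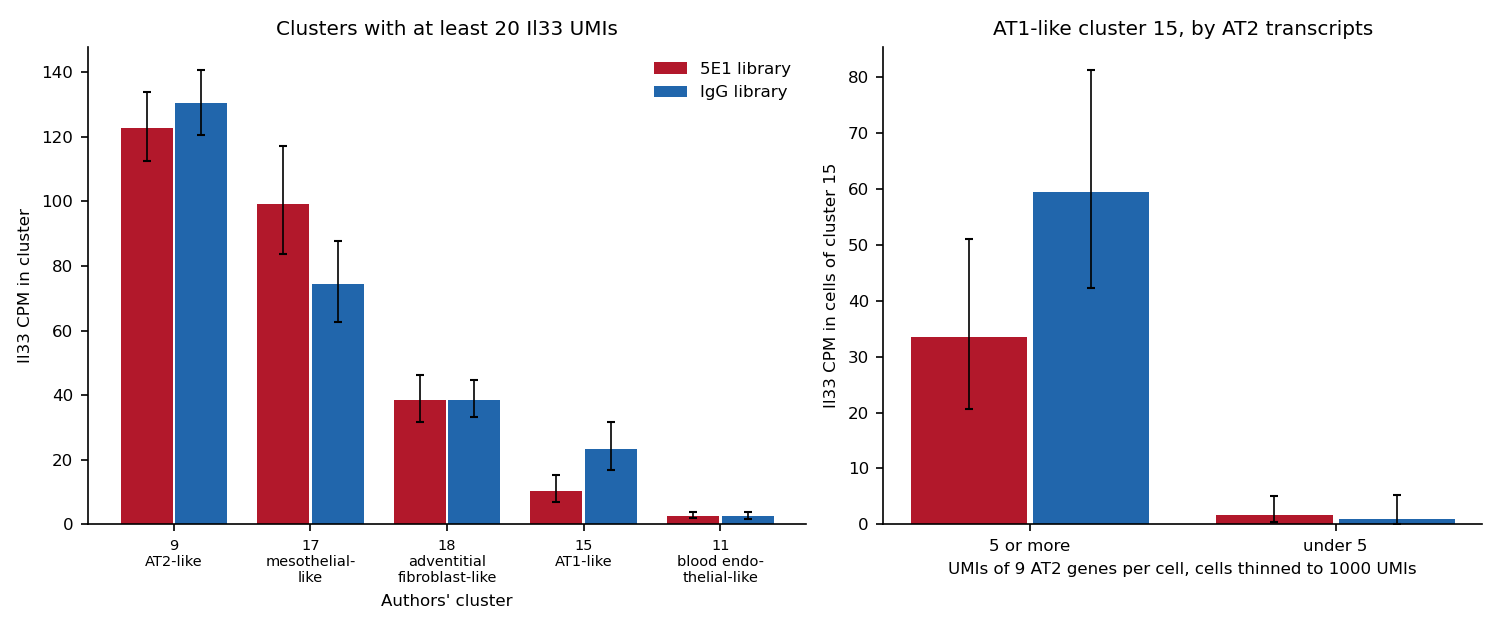
Il33 CPM in the 5 clusters with at least 20 Il33 UMIs (left) and in cells of AT1-like cluster 15 with at least 5 or under 5 AT2 UMIs per 1000 (right), 5E1 in red left of IgG in blue, with exact 95% Poisson intervals. The AT2-rich cells of cluster 15 stand at 33.4 CPM in 5E1 and 59.5 CPM in IgG, and the remaining cells near 0.

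In the adventitial fibroblast-like cluster, cells with Il33 and cells with Il6 differed in the other genes they carried. Il33 was seen in 68 of 470 cells in 5E1 and 117 of 892 in IgG, Il6 in 31 and 68 cells, and both in 4 cells in 5E1 and 12 in IgG, counts too small to say whether the genes share cells. Il33-bearing cells were also deeper, at medians of 7189 UMIs in 5E1 and 6140 in IgG, against 5459 and 4787 in cells without an Il33 UMI. Cells with an Il33 UMI had more Pi16, a marker of adventitial fibroblasts, at 197.8 CPM against 86.7 CPM in cells without one in 5E1, and at 271.5 CPM against 63.1 CPM in IgG. Ly6c1, another gene of the same marker list, stood at 107.7 CPM against 14.7 CPM in 5E1 and at 110.1 CPM against 15 CPM in IgG. All 8 genes of the adventitial list were higher in Il33-bearing cells in both libraries. For Il6 the list did not move as 1: in cells with an Il6 UMI, 1 of 8 genes was higher in 5E1 and 4 of 8 in IgG. Pi16 stood at 36.8 CPM against 115.2 CPM in 5E1 and at 41.2 CPM against 102.0 CPM in IgG, while Dcn, a matrix proteoglycan, stood at 2258 CPM against 2213 CPM in 5E1 and at 2958 CPM against 2514 CPM in IgG. In these Il6-bearing cells 10 of 10 immediate early genes were higher in both libraries. Cells switch these genes on within minutes of a stimulus and also during tissue dissociation. Fos stood at 2418 CPM in them against 1504 CPM in the others in 5E1, and at 1735 CPM against 969.0 CPM in IgG. As a group the 10 immediate early genes took 7553 CPM of cluster 18 in 5E1 and 5694 CPM in IgG, with 10 of 10 higher in 5E1, and the part of dissociation in the Il6 values was not tested.

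Il1rl1 was highest in clusters 2 and 3, where Il13, Il4 and Il5 were also highest, but it was not confined to them. Cluster 3 had 43.6 CPM in 5E1 (51 UMIs, 32.5 to 57.4) and 42.6 CPM in IgG (45 UMIs, 31.1 to 57.0), a ratio of 1.02 (0.673 to 1.57). Cluster 2 had 25.3 CPM in 5E1 (46 UMIs) and 17.5 CPM in IgG (30 UMIs), a ratio of 1.45 (0.897 to 2.38). Unnamed cluster 7, led by Ccl17 and antigen-presentation genes, had 9.35 CPM in 5E1 and 6.47 CPM in IgG. Interstitial macrophage-like cluster 8 had 8.17 CPM in 5E1 and 6.61 CPM in IgG, and no other cluster had 20 Il1rl1 UMIs. Over both libraries, clusters 7 and 8 held 25 Il1rl1 UMIs each. They held 6 and 1 UMIs of Il13, 0 and 2 of Il4, and 2 and 0 of Il5. The B-like cluster had 0 Il1rl1 UMIs in both libraries. Over all kept cells the libraries held 146 Il1rl1 UMIs in 5E1 and 146 in IgG, a ratio of 1.31 (1.04 to 1.67) per UMI sequenced. Membrane-bound and soluble forms of the receptor were not told apart.

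Because clusters 2 and 3 were mixed, their cells were sorted by marker genes that do not include the 6 genes. A cell was called basophil- or mast-marked with at least 3 of 17 basophil and mast genes and more of these than of the 14 ILC2 genes. It was ILC2-marked with at least 5 ILC2 genes, at least as many as basophil and mast genes, and no Trac UMI. Otherwise it was Trac-bearing with a UMI of that T cell receptor gene. Basophil-marked cells had more UMIs of Mcpt8, Prss34 and Cd200r3 together than of Kit, Mcpt4, Cma1, Tpsb2 and Tpsab1, and mast-marked cells had fewer. Ties were left undecided. This rule was made after the planned limit of 2 markers had left at most 1 ILC2-marked cell per library in clusters 2 and 3. In other clusters that planned limit marked 174 cells as ILC2 in 5E1 and 340 in IgG, and these held 0 Il5 UMIs. The 2 clusters held 35 basophil-marked cells in 5E1 and 33 in IgG, 14 and 9 mast-marked cells, and 40 and 56 ILC2-marked cells. Basophil-marked cells carried the basophil protease Mcpt8 in 30 of 35 cells in 5E1 and 29 of 33 in IgG, and Kit, the stem cell factor receptor of mast cells, in none. Mast-marked cells carried the mast cell chymase Cma1 in 11 of 14 cells in 5E1 but in 5 of 9 in IgG, so the second group was less well defined. ILC2-marked cells carried Gata3, the factor that directs ILC2 and type 2 T cells, in 30 of 40 cells in 5E1 and 53 of 56 in IgG, and Arg1, an enzyme of arginine breakdown found in lung ILC2, in 34 of 40 and 55 of 56. Other genes of the ILC2 list were rare or absent, with Il17rb in 5 and 6 cells, Nmur1 in 0 and 2, and Ptgdr2, a prostaglandin receptor of type 2 cells, in none. T cell genes other than Trac were frequent in ILC2-marked cells, with Trbc2 in 36 of 40 cells in 5E1 and 51 of 56 in IgG, Cd3g in 31 and 40, and Trbc1 in 23 and 27, so these cells cannot be told apart from T cells with no Trac UMI by these genes. The marker genes chose the cells, and Mcpt8, Kit and Cma1 also split basophil- from mast-marked cells. These shares describe the groups and are no independent check of the labels. Of 6 eosinophil genes, Prg2, Epx and Ear6 were at 0 in cluster 3 and the list held 9 UMIs in 5E1 and 13 in IgG. In cluster 2, Epx and Ear6 were at 0 and the list held 19 UMIs in 5E1 and 3 in IgG. At the limits, 4 cells in 5E1 and 5 in IgG had exactly 3 basophil and mast genes, 13 and 15 had 2, 13 and 15 had exactly 5 ILC2 genes, and 18 and 30 had 4.

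Il5 then stood apart from Il6 by kind of cell, while Il6, Il4 and Il13 were often found together in basophil-marked cells. Il13 and Il6 shared 20 of these cells in 5E1 and 15 in IgG. Il6, a cytokine of fever and the acute phase, was most frequent in the basophil-marked cells. It was seen in 32 of 35 of them in 5E1 and in 32 of 33 in IgG, with medians of 10 and 11 Il6 UMIs per cell. These cells held 395 Il6 UMIs in 5E1 and 428 in IgG, which is 94.7% and 94.3% of the Il6 of both clusters. Over both libraries, 43.8% of all 1878 Il6 UMIs lay in these few cells. Il4, which drives IgE switching and type 2 T cell fate, was seen in 24 of 35 basophil-marked cells in 5E1 (79 UMIs) and in 27 of 33 in IgG (79 UMIs), and 58.5% of all 270 Il4 UMIs lay there. Il4 and Il6 were found together in 23 of these cells in 5E1 and 26 in IgG. Il5, the growth factor of eosinophils, was at 0 UMIs in all of them in both libraries.

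Il5 was instead found in ILC2-marked cells, with 27 UMIs in 13 of 40 cells in 5E1 and 31 UMIs in 14 of 56 cells in IgG. Over both libraries, 71.6% of all 81 Il5 UMIs lay in ILC2-marked cells of clusters 2 and 3, and a further 12.3% in ILC2-marked cells of other clusters. This placing depends on the rule. Under the planned 2-marker limit, basophil- or mast-bearing cells of clusters 2 and 3 held 9 Il5 UMIs in 5E1 and 6 in IgG. Cells with T markers then held 16 and 29. No ILC2-marked cell of either library held an Il6 UMI. Il1rl1 was seen in 23 of 40 ILC2-marked cells in 5E1 (50 UMIs) and in 23 of 56 in IgG (36 UMIs). Basophil-marked cells had Il1rl1 in 17 of 35 cells in 5E1 and 10 of 33 in IgG. Trac-bearing cells had it in 1 of 289 cells in 5E1 and 3 of 252 in IgG.

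Il13, which acts on airway epithelium, goblet cells and macrophages, came from several kinds of cell. Basophil-marked cells held 39 Il13 UMIs in 5E1 and 32 in IgG, ILC2-marked cells 33 and 21, and mast-marked cells 26 and 2. A single Trac-bearing cell of cluster 2 in the 5E1 library, with Gata3, Cd28 and 16571 UMIs in all, held 43 Il13 UMIs. In the IgG library the richest cell was an ILC2-marked cell placed in blood endothelial-like cluster 11, with 24 of that cluster's 26 Il13 UMIs. In basophil-marked cells Il13 was found together with Il4 in 14 cells in 5E1 and 13 in IgG. In ILC2-marked cells it was found with Il5 in 4 and 2 cells.

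**Figure D3:**
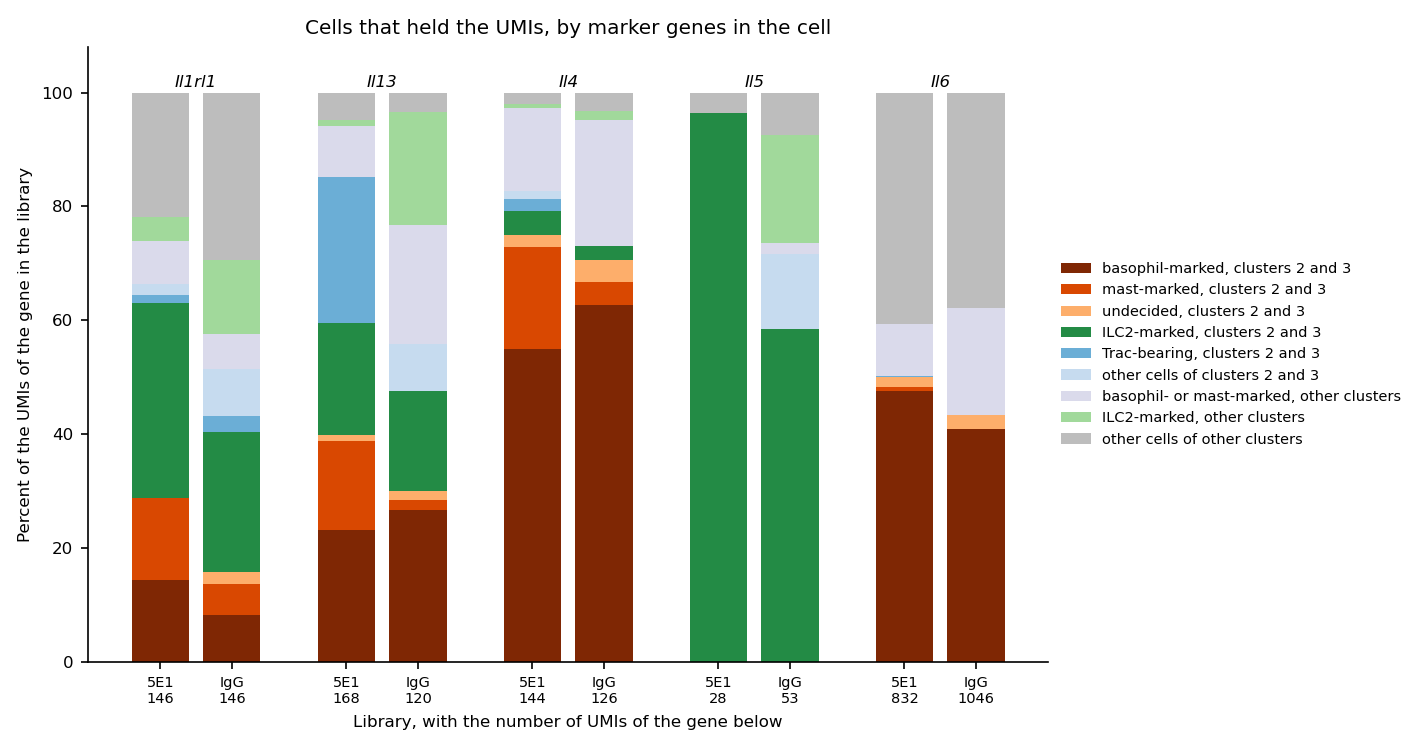
Stacked bars of the percent of the UMIs of each of the 5 genes other than Il33, by the kind of cell that held them, with 5E1 left of IgG for each gene and the number of UMIs under each bar. Basophil-marked cells of clusters 2 and 3 hold most Il4 and the largest marked portion of Il6, and ILC2-marked cells hold most Il5.

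Between the libraries, the levels in the leading cluster of each cytokine stayed within 2-fold. In cluster 3, Il6 had 354.2 CPM in 5E1 (414 UMIs) and 386.1 CPM in IgG (408 UMIs), a ratio of 0.917 (0.798 to 1.05). Il4 had 87.3 CPM in 5E1 (102 UMIs) and 76.6 CPM in IgG (81 UMIs), a ratio of 1.14 (0.842 to 1.54). Il13 had 52.2 CPM in 5E1 (61 UMIs) and 31.2 CPM in IgG (33 UMIs), a ratio of 1.67 (1.08 to 2.64). Il5 led in cluster 2, with 10.5 CPM in 5E1 (19 UMIs) and 16.3 CPM in IgG (28 UMIs), a ratio of 0.642 (0.339 to 1.19). Of all genes tested 4.69% were past 2-fold in cluster 3 and 4.97% in cluster 2. Only the Il13 interval excluded 1. It did not after thinning to 1000 UMIs (log2 ratio 0.43, -0.48 to 1.38). Nor did it without cells above the 95th percentile of UMIs (0.60, -0.03 to 1.28). Without the richest cell of each library it still did (0.87, 0.17 to 1.64). The Xist-bearing 5E1 cells against all IgG cells of the cluster gave other values, with log2 ratios of 0.90 for Il6, 1.16 for Il4, 1.17 for Il13 and 0.36 for Il5. Only 5E1 was filtered here, and the filter also depends on finding an Xist UMI. In the IgG library, 19 of the 33 basophil-marked cells of clusters 2 and 3 would pass it, and 56 of the 56 ILC2-marked cells. These values are therefore not a sex-matched comparison.

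Marked cells were also compared between the libraries, on fewer UMIs and with markers that were not alike. Among ILC2-marked cells Areg stood at 842.5 CPM in 5E1 and 340.9 CPM in IgG, and Tcf7 was seen in 7 of 40 cells in 5E1 and 2 of 56 in IgG. In basophil-marked cells Il6 stood at 4239 CPM in 5E1 and 5761 CPM in IgG, a ratio of 0.736 (0.640 to 0.846), but in the 6 such 5E1 cells with Xist and no Y-linked UMI it stood at 5898 CPM, a ratio of 1.02 (0.817 to 1.27). Il4 in basophil-marked cells had a ratio of 0.797 (0.576 to 1.10) and Il13 of 0.972 (0.593 to 1.60). In ILC2-marked cells Il13 stood at 141.1 CPM in 5E1 and 73.8 CPM in IgG, a ratio of 1.91 (1.07 to 3.48). Il1rl1 in the same cells stood at 213.8 CPM in 5E1 and 126.5 CPM in IgG, a ratio of 1.69 (1.08 to 2.67), and Il5 at 115.5 and 108.9 CPM, a ratio of 1.06 (0.609 to 1.84). Without the richest cell of each library the ILC2-marked ratios were 1.95 for Il13, with a lower bound that touched 1, and 1.72 (1.07 to 2.80) for Il1rl1. In the 12 Xist-bearing ILC2-marked 5E1 cells the ratios were 3.32 for Il13 and 2.20 for Il1rl1. In mast-marked cells Il13 had a ratio of 10.2 (2.56 to 88.9) and Il4 of 4.09 (1.55 to 13.6), and these rest on 14 and 9 cells of unlike marker content.

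Over all clusters with at least 20 UMIs of a gene there were 26 values, of which 8 were past 2-fold, 4 higher and 4 lower in 5E1. Of all genes tested, the share past 2-fold was 3.98% over the whole libraries. It was 4.97% in cluster 2, 4.69% in cluster 3, 5.78% in cluster 4, 7.09% in cluster 6, 4.92% in cluster 7, 6.12% in cluster 8 and 4.21% in cluster 9. It was 3.05% in cluster 11, 3.31% in cluster 15, 4.59% in cluster 17, 3.52% in cluster 18, 8.42% in cluster 19, 6.77% in cluster 21 and 3.08% in cluster 22. Sums this small rest on few cells, and the cells behind them can be named. Il6 in the B-like cluster, with 47 UMIs in 5E1 and 0 in IgG, was a single cell that carried 8 basophil and mast genes beside B cell genes. Il6 in alveolar myofibroblast-like cluster 21, with 0 UMIs in 5E1 and 62 in IgG, lay to 95.2% in 4 basophil- or mast-marked cells. Il6 in cluster 2, with 3 UMIs in 5E1 and 46 in IgG, lay in 2 marked cells in IgG. In matrix fibroblast-like cluster 19 Il6 stood at 45 UMIs in 5E1 and 33 in IgG, of which 1 marked cell held 24 in 5E1 and 1 marked cell held 9 in IgG. Without the richest cell of each library its log2 ratio was 1.72 against 2.34 with all cells. Il6 in interstitial macrophage-like cluster 8 had 21 UMIs in 11 cells in 5E1 and 8 UMIs in 7 cells in IgG, but 1 UMI among the Xist-bearing 5E1 cells, whose log2 ratio was -0.30. Il13 in cluster 2, with 82 UMIs in 5E1 and 34 in IgG, had a log2 ratio of 1.18, and of 0.51 without the richest cell of each library. Il13 in cluster 11 was the ILC2-marked IgG cell named above. In all, 5 of the 8 values kept at least 20 UMIs and stayed past 2-fold on the same side without the richest cells. That check drops only 1 cell per library. Without any basophil- or mast-marked cells, Il6 in cluster 2 had 0 UMIs in both libraries. In cluster 21 it then had 0 in 5E1 and 3 in IgG.

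**Figure D4:**
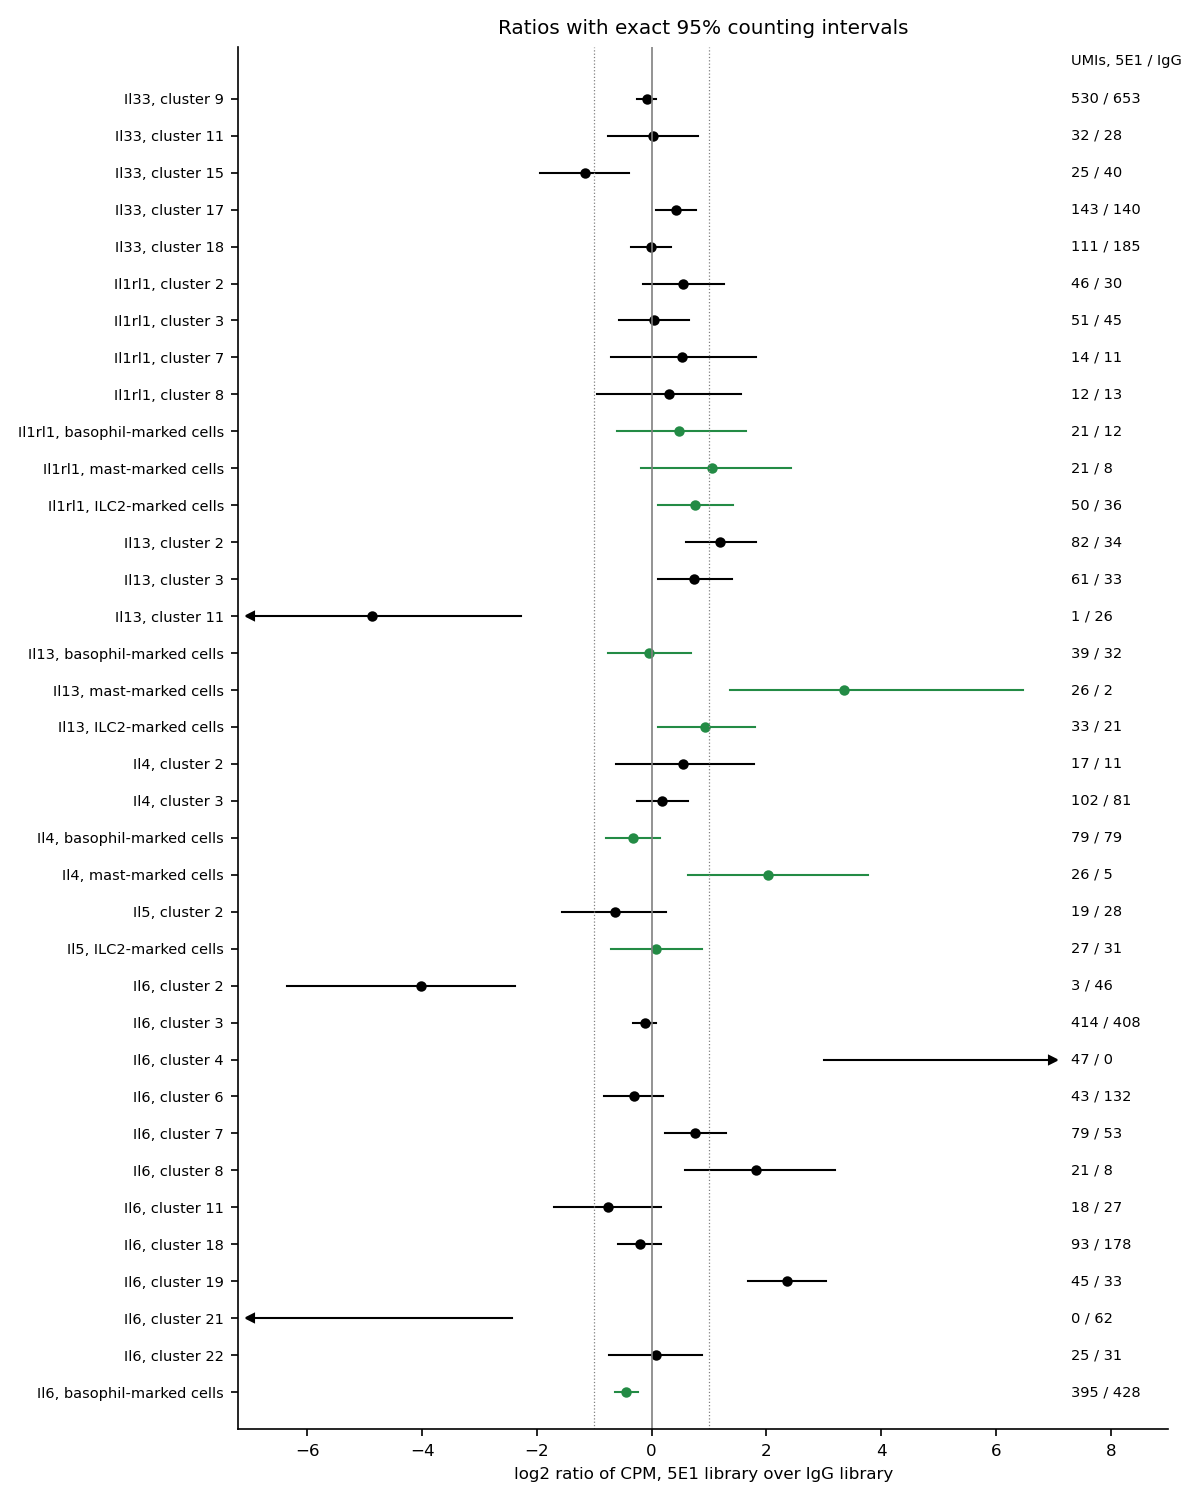
Log2 ratios of CPM (5E1 over IgG, no count added) with exact 95% counting intervals for each gene in clusters with at least 20 UMIs (black) and in marked cells of clusters 2 and 3 (green), with the UMIs of 5E1 and IgG at the right. Arrows mark intervals that leave the axis, and sums of 0 have no point. Dotted lines mark 2-fold. Many intervals include 0, and the values farthest from 0 have few UMIs in 1 library.

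Il6 was also found outside the marked cells, with 338 UMIs in 127 cells in 5E1 and 396 UMIs in 193 cells in IgG in cells of other clusters without these marks. Cluster 7 had a ratio of 1.69 (1.18 to 2.45) with all cells and 1.81 (1.25 to 2.65) without marked cells, at 52.9 CPM in 5E1 and 29.2 CPM in IgG. Without marked cells these UMIs lay in 15 of 199 cells in 5E1 and 18 of 258 in IgG, and 1 cell held 23 of the 79 in 5E1. Monocyte-like cluster 6 turned direction: with all cells it had 25.8 CPM in 5E1 (43 UMIs) and 31.9 CPM in IgG (132 UMIs), a ratio of 0.810 (0.560 to 1.15). Without marked cells, which held 68 of the IgG UMIs, it had 26.1 CPM in 5E1 and 15.5 CPM in IgG, a ratio of 1.68 (1.11 to 2.51). These UMIs lay in 12 of 416 cells in 5E1 and 31 of 1064 in IgG, and 1 cell held 14 of the 43 in 5E1. The ratios of clusters 6 and 7 thus rest on UMIs of few cells. Adventitial fibroblast-like cluster 18 had a ratio of 0.868 (0.668 to 1.12) with all cells and 0.978 (0.749 to 1.27) without marked cells, at 32.3 CPM in 5E1 and 33.0 CPM in IgG.

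The chains of the receptors were spread over immune, endothelial and stromal clusters. Of 31 receptor and signalling genes, 0 of 26 measured were past 2-fold in cluster 2, 0 of 26 in cluster 3, and 0 of 28 in cluster 9, where 4.21% of all genes were. Over the 14 clusters in which a gene of the 6 had at least 20 UMIs, 14 of 362 values of this list were past 2-fold (3.87%), in 10 clusters. Of all genes, 3.05% (cluster 11) to 8.42% (cluster 19) were past 2-fold per cluster. Matrix fibroblast-like cluster 19 held 3 of them, Il4ra at 26.3 CPM in 5E1 and 11.9 CPM in IgG, Il2rg at 1.62 and 4.22 CPM, and Socs3, a feedback inhibitor of cytokine signals, at 281.4 and 123.8 CPM. Il6ra was past 2-fold higher in 5E1 in cluster 15 (21 UMIs in 5E1 and 6 in IgG) and cluster 22 (21 and 7), and Il2rg lower in cluster 18 (6 and 27). Socs1, another such inhibitor, was lower in 5E1 in clusters 6, 7 and 8. Over the whole libraries 0 of 29 were past 2-fold, with a median log2 ratio of 0.10 against -0.01 for all genes. Il4ra, the chain shared by the Il4 and Il13 receptors, was highest in cluster 8, at 65.4 CPM in 5E1 and 71.7 CPM in IgG, and stood at 58.5 and 63.5 CPM in endothelial-like cluster 11. Il13ra1, which pairs with it, was highest in monocyte-like cluster 6, at 63.0 CPM in 5E1 and 65.9 CPM in IgG. The decoy receptor Il13ra2 had 3 UMIs in 5E1 and 2 in IgG over all cells. Il2rg, the common gamma chain of the lymphoid Il4 receptor, was highest in cluster 3, at 189.9 CPM in 5E1 and 175.1 CPM in IgG. Il5ra had 5 UMIs in 5E1 and 3 in IgG, all of them in the B-like cluster. Csf2rb, the shared beta chain of the Il5 receptor, was highest in alveolar macrophage-like cluster 5, at 257.6 CPM in 5E1 and 251.4 CPM in IgG. Il6ra was highest in cluster 6, at 135.7 CPM in 5E1 and 120.3 CPM in IgG, and in cluster 8 it stood at 127.4 CPM in 5E1 and 83.4 CPM in IgG, a ratio of 1.53 (1.23 to 1.89). Il6st, the signal-giving chain gp130, was highest in mesothelial-like cluster 17, at 138.2 CPM in 5E1 and 128.6 CPM in IgG. Il1rap had 7.96 CPM in 5E1 and 7.61 CPM in IgG over all cells. Il13ra1, Il13ra2 and Il2rg lie on the X chromosome.

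Other alarmins and cytokines of the list had sources of their own. Tslp, an epithelial and stromal alarmin, was highest in pericyte-like cluster 13, at 162.1 CPM in 5E1 and 154.0 CPM in IgG. Il25 had 0 UMIs in 5E1 and 2 in IgG. Areg, a growth factor that ILC2 release, stood at 89.8 CPM in 5E1 (163 UMIs) and 51.8 CPM in IgG (89 UMIs) in cluster 2, and at 30.8 and 11.4 CPM in cluster 3, where the ratio of 2.71 (1.38 to 5.73) was past 2-fold. Of the 27 genes, 4 of 13 measured were past 2-fold in cluster 2 (Il1b, Il6, Il13 and Lif), against 4.97% of all genes there, 2 of 11 in cluster 3 (Il2 and Areg), against 4.69%, and 1 of 12 in cluster 9 (Tnfsf15), against 4.21%. Cluster 11 had 4 of 14 (Il18, Il13, Osm and Tnf), against 3.05%. Cluster 19 had 6 of 12, with Tslp, Il2, Il6, Il10 and Osm higher and Il1b lower in 5E1, against 8.42%. Over the 14 clusters 31 of 153 values were past 2-fold, 17 higher and 14 lower in 5E1, in 12 clusters, and many of these rest on few UMIs. Of all genes, 3.05% (cluster 11) to 8.42% (cluster 19) were past 2-fold per cluster. Over the whole libraries 0 of 23 were past 2-fold, against 3.98% of all genes.

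The type 2 response list holds genes that Il4 and Il13 are known to induce in macrophages, fibroblasts and epithelium. Over the whole libraries 4 of 22 measured genes were past 2-fold, with Ccl22 and Muc5b higher and Ccl8 and Muc5ac lower in 5E1, against 3.98% of all genes. Over the 14 clusters 23 of 98 values were past 2-fold, 7 higher and 16 lower in 5E1, in 11 clusters. Of all genes, 3.05% (cluster 11) to 8.42% (cluster 19) were past 2-fold per cluster. Some of the 23 rest on few UMIs in 1 library, such as Mrc1 in cluster 6 (1 in 5E1 and 20 in IgG) and Alox15 in cluster 8 (26 and 4). Over the whole libraries the median log2 ratio of the list was 0.38, against -0.01 for all genes. Within clusters its median ran from -0.69 in cluster 15 to 0.39 in cluster 8. Ccl17 and Ccl22, chemokines that draw type 2 T cells through the same receptor, went opposite ways in cluster 7. Ccl17 stood at 245.2 CPM in 5E1 and 430.8 CPM in IgG, a ratio of 0.569 (0.501 to 0.646), and Ccl22 at 257.9 CPM in 5E1 and 64.7 CPM in IgG, a ratio of 3.99 (3.22 to 4.98). Ccl11, the eosinophil attractant eotaxin, stood at 174.4 CPM in 5E1 and 146.2 CPM in IgG in cluster 18. Ccl24, another eosinophil attractant, stood at 221.4 CPM in 5E1 and 140.9 CPM in IgG in cluster 8. Arg1 stood at 85.4 CPM in 5E1 and 142.6 CPM in IgG in cluster 2, a ratio of 0.599 (0.486 to 0.735). In the ILC2-marked cells, which Arg1 helped to choose, it stood at 774.0 CPM in 5E1 and 794.2 CPM in IgG. Retnla, a macrophage and airway gene that type 2 cytokines induce, stood at 49.4 CPM in 5E1 and 237.5 CPM in IgG in cluster 7, and at 1299 and 808.4 CPM in cluster 10.

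Over the 23 clusters, the genes most like each of the 6 were ranked by the Pearson correlation of log2(CPM + 1) among 13345 genes, as a description in which the points share 2 libraries. Lrp2 was most like Il33 (r = 0.897), followed by Tfcp2l1, Arfgef3, Col4a4 and Spock2. Gzma, a granzyme, was most like Il1rl1 (r = 0.915), followed by Icos, Klrd1, Arg1 and Klra5. Icos, a costimulator of T cells and ILC2, was most like Il13 (r = 0.967), followed by Sh2d1a, Cst7, Cd28 and Ctsw. Prss34, a basophil protease, was most like Il4 (r = 0.939), followed by Cd200r3, Cyp11a1, Mcpt8 and Izumo1r. Ccl4, a chemokine, was most like Il6 (r = 0.828), followed by Cd200r3, Cyp11a1, Ptpn22 and Ccl3. Il5, with fewer than 100 UMIs, was not ranked. The ranking compares whole clusters and does not show that genes lie in the same cells. Mixed cluster 2 was led by Gzma, Car1, Nkg7, Gzmb, Klrd1 and Ncr1, which include natural killer cell markers. Yet ILC2-marked cells held 78.3% of the Il1rl1 UMIs of that cluster in 5E1 and 76.7% in IgG.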

How the data were processed

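Whole-lung cells of 2 pools of mouse pups, 1 library per condition, were measured with the 10x Genomics 3' kit. The authors deposited raw UMI counts per gene and barcode. Cell Ranger 3.1.1 and the mm10 build were used, per the submitters' processing notes, although the file headers give another software version. The authors' cell table, made with iCellR per the file header, gives each kept cell 1 of 23 clusters and its library, under headers shifted by 1 column. How cells were called and whether doublets were removed was not given in the sources used.

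From the counts, UMIs were summed per library and cluster and scaled to CPM. Sums have exact Poisson, ratios exact conditional binomial and shares exact Clopper-Pearson 95% intervals. A gene was counted where its 2 sums reached 20 UMIs, and called past 2-fold by its log2 ratio with 0.5 UMI added. Cells were thinned to 1000 UMIs for shares, which left out 153 cells in 5E1 and 215 in IgG. No doublet caller was run. No test was made, since cells are not replicates. The 6 genes, the lists and the markers were chosen with earlier results of these data known. Named genes were the 6 in every cluster, list genes past 2-fold, receptor subunits and the first gene of each list, and the 5 genes most like each of the 6 with at least 100 UMIs. Other list genes, markers in marked cells and immediate early genes were named after their values were seen. Barcodes the authors left out, 1065 in 5E1 and 1512 in IgG, entered no comparison. Calls and intervals were tested on simulated sums of independent UMIs. That cannot show how the intervals fare where many UMIs lie in 1 cell. Tools were Python 3.11.15, numpy 2.4.6, scipy 1.17.1, pandas 2.3.3 and matplotlib 3.10.9.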

Additional observations from a re-analysis of the deposited data

How the results depend on the processing

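Each condition is a single library, and small sums and the sex of the pools limit these values. No paired analysis was possible because each condition has 1 library. Outside leading clusters, Il6 in cluster 8 changed sign to -0.30 with the Xist-bearing 5E1 cells, with 1 UMI in them, and Il6 in cluster 4 had 0 UMIs in both libraries without the richest cell. Taking only 5E1 cells with Xist and no Y-linked UMI moved the log2 ratios in the leading cluster to -0.60 for Il33, 0.73 for Il1rl1, 1.16 for Il4, 0.36 for Il5 and 0.90 for Il6, and Il13 stood at 1.17. This took Il4 and Il13 past 2-fold and turned the sign of Il5 and Il6, which stood at -0.63 and -0.12 with all 5E1 cells. Thinning to 1000 UMIs gave -0.53 for Il33 and -0.33 for Il6. Il33 had -1.15 in cluster 15 and 0.42 in cluster 17 in place of cluster 9, alternatives chosen after seeing the data. Unthinned shares of cells with a UMI were 50.3% in 5E1 and 50.3% in IgG for Il33, 8.25% in 5E1 and 7.77% in IgG for Il1rl1, 5.10% in 5E1 and 5.24% in IgG for Il5, and in 5E1 7.47% for Il13 and 8.76% for Il4.

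Counts of list genes past 2-fold moved with the minimum of UMIs and with the cells used. With at least 1 UMI, the receptor and signalling list had 1 in cluster 2, 2 in cluster 9 and 1 over all cells, the alarmin and cytokine list 8 in cluster 2, 7 in cluster 3, 3 in cluster 9 and 2 over all cells, and the response list 7 in cluster 2, 3 in cluster 3 and 11 in cluster 9. With at least 50 UMIs, the alarmin and cytokine list had 2 in cluster 2, 0 in cluster 3 and 0 in cluster 9, and the response list 1 in cluster 2 and 1 in cluster 9. With the Xist-bearing 5E1 cells, the receptor list had 2 in cluster 2, 4 in cluster 3 and 1 in cluster 9, the alarmin and cytokine list 2 over all cells, and the response list 1 in cluster 2, 2 in cluster 3 and 8 over all cells. A median-ratio size factor left the alarmin and cytokine list with 1 in cluster 3. The cause was not tested, beyond the smaller sums that these settings use. A limit of 1 basophil or mast marker would mark 157 cells in 5E1 and 184 in IgG.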

Other observations

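Barcodes that the authors left out held few UMIs of the 6 genes. Il33 had 18 UMIs in 1065 barcodes in 5E1 (8.20 CPM) and 24 UMIs in 1512 barcodes in IgG (10.7 CPM). Il6 had 12 UMIs in 5E1 and 13 in IgG, and Il4 had 4 in 5E1 and 6 in IgG.

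Basophil- or mast-marked cells were also found outside clusters 2 and 3. In blood endothelial-like cluster 11 the rule marked 210 cells in 5E1 and 168 in IgG, and Kit and Gata2, which are on the mast list, are also known from endothelium. Those cells held 3 Il6 UMIs in 5E1 and 16 in IgG.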
